A study of Mus musculus with 6 samples.

Results

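The genes described here are 57 members of the DNA replication and S-phase programme of mouse cells, chosen by gene symbol from 51912 gene IDs. They were grouped by role before description: the MCM2-7 helicase, origin licensing, origin firing, the sliding clamp and its loader, the single-strand binding protein RPA, the polymerases, Okazaki fragment processing, nucleotide supply, G1/S regulators and histone supply. Transcripts were counted by RNA-seq in EL4 cells, which are an established mouse T-cell lymphoma line labelled wild type. The tested cells received 10 µM RGFP966, which inhibits the histone deacetylase HDAC3, for 24 h (3 libraries), and the control cells received vehicle (3 libraries). All 6 libraries came from the same line in the same medium. All 57 members passed the filter on low counts.

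Replication starts in G1, when the origin recognition complex, CDC6 and CDT1 load the MCM2-7 helicase onto DNA. In S phase the kinases CDC7-DBF4 and CDK2 turn the loaded helicase into an active one by adding CDC45 and GINS, and the polymerases, clamp and RPA then work at the fork. Transcription of most of these genes peaks at the G1/S boundary, when E2F factors are released from RB family proteins.

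Library totals lay between 12935443 and 14768540 counts with RGFP966, and between 15380331 and 16451017 counts with vehicle, and the members took near 1% of the scaled counts. Levels are CPM, counts relative to library size and scaled for library composition. Marker sums, counts of markers above 1 CPM, and the levels of Gse1 and Eif4a2 given below are CPM without the scaling for composition. All 10 T cell markers were above 1 CPM, with sums of 2762 to 2850 CPM with RGFP966 and 2679 to 2719 CPM with vehicle, and by edgeR's quasi-likelihood test at an adjusted p under 0.05, 2 of them were higher with RGFP966 (Cd2 by 0.56 and Ptprc by 0.22 on the log2 scale) and 3 lower (Cd247, Lat and Zap70, by 0.23, 0.22 and 0.11). Of 12 retina markers, looked at because the extraction text in the labels names retina, 3 were above 1 CPM and 2 had no count, and their summed level ran from 9.35 to 10.3 CPM with RGFP966 and from 7.22 to 8.49 CPM with vehicle. Of the 3 that were tested, Rom1 was higher, at 4.56, 5.04 and 5.23 CPM with RGFP966, against 2.41, 3.00 and 3.77 CPM with vehicle (log2 fold change 0.69, edgeR adjusted p = 0.00885), and Sag and Pde6b were not called. Of 6 B cell and 6 myeloid markers, 1 and 3 were above 1 CPM, and 2 of each list had no count. Of the 1 B cell and 3 myeloid markers tested, 0 were called by edgeR, and 0 and 1 had an unadjusted p under 0.05. B cell markers summed to 1.86 to 2.03 CPM with RGFP966 and 1.82 to 2.73 CPM with vehicle, and myeloid markers to 12.4 to 12.8 CPM with RGFP966 and 12.2 to 13.6 CPM with vehicle. The part of these cell types in the members' results was not tested. Whether each library had its own culture is not in the labels, so p-values measure only the spread between these libraries.

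The promoters of 6 members that changed are shown because E2F factors are the textbook regulators of this programme and both directions of change occur among genes that carry their recognition words. RefSeq windows of 300 bases (GRCm38.p6, 250 before and 50 from the annotated start) were found for 48 of the 57 members. Mcm4, Gmnn, Gins1, Gins2, Gins4, Rfc2, Prim2, Pole and Ccne2 were not matched. Words searched on both strands, with overlaps counted, were TTTCCCGC, TTTGGCGC, TTTCGCGC and TTTGCCGC. Some members had more than 1 window, so the 48 members gave 57 windows. At least 1 of the words stood in 19 of these 57 windows (33.3%). The share was 2.26% of all 32851 windows and 4.03% of the 11896 windows of tested genes. By gene, a word was present in 4 of 8 members called higher, 8 of 12 called lower and 7 of 28 not called. The cell cycle homology words TTTGAA and TTTAAA stood in 28.1% of member windows, against 27.6% of all windows and 19.9% of windows of tested genes. The sequences below are on the gene's strand, 5′ to 3′, with the E2F words in capitals on either strand. The first 3 genes were higher with RGFP966 and the other 3 were lower.

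Mcm3 (chr1:20820265-20820294, minus strand): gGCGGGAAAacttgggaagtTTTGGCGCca

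Orc3 (chr4:34614934-34614993, minus strand): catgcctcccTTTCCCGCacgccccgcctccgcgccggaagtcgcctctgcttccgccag

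Pola1 (chrX:93632244-93632303, minus strand): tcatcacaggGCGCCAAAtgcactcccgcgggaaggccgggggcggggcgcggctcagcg

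Mcm7 (chr5:138171854-138172058, minus strand): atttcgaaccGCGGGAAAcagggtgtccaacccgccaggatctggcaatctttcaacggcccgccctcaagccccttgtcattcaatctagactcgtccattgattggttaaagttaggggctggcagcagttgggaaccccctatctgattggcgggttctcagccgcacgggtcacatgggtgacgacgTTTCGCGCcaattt

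Cdk2 (chr10:128705142-128705201, minus strand): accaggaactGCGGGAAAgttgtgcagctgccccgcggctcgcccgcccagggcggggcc

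Pold3 (chr7:100121473-100121532, minus strand): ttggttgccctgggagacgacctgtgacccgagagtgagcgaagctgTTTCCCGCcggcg

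With positions counted from the start base as 0, 2 words lie in Mcm3, which rose, at 19 and 38 bases after the start. In the window shown for Mcm7, which fell, 1 lies 165 bases before the start and 1 lies 16 bases after it. A window at another annotated start of Mcm7 holds no E2F word. The word of Cdk2, which fell, is TTTCCCGC and lies 140 bases before the start. That of Pola1, which rose, is TTTGGCGC and lies 138 bases before. Whether the position or kind of word goes with the direction of change was not tested. A match describes the letters of the window and does not show that a factor binds there.

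The comparison asked which replication genes differ after exposure to the HDAC3 inhibitor. Changes were small and went both ways: 8 of 57 members were higher with RGFP966 and 15 were lower at an adjusted p under 0.05 (edgeR quasi-likelihood test, Benjamini-Hochberg over all genes tested). Over all 13484 genes tested, 11.4% were called higher and 11.9% lower. Among the 7679 genes whose mean reached 20 CPM, where 54 of the 57 members lie, 12.6% were called higher and 18.4% lower. The members' shares were 14.0% higher, which is near both backgrounds, and 26.3% lower. Their median log2 fold change (RGFP966 over vehicle) was -0.06, against -0.00 for all tested genes and -0.02 for genes of at least 20 CPM. The called members ran from a fall of 0.26 (Gins2) to a rise of 0.16 (Orc3) on the log2 scale. The groups did not overlap in 26 members (45.6%), against 36.3% of all genes tested and 44.2% of those of at least 20 CPM, so the members' share was near that of genes at their level. They did not overlap in 22 of the 23 called members. Those were selected by a test on these same libraries, so this count is no separate support for the calls. In bulk RNA, a change in the fraction of cells in S phase and a change in transcripts per cell cannot be told apart. How calls divided between higher and lower depended on library scaling: of all called genes 49.1% were higher, but 59.1% with upper-quartile factors, under which 8 members were higher and 11 lower. Without vehicle library 1 the higher members numbered 4, and without RGFP966 library 1 or 2 they numbered 5.

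**Figure D1:**
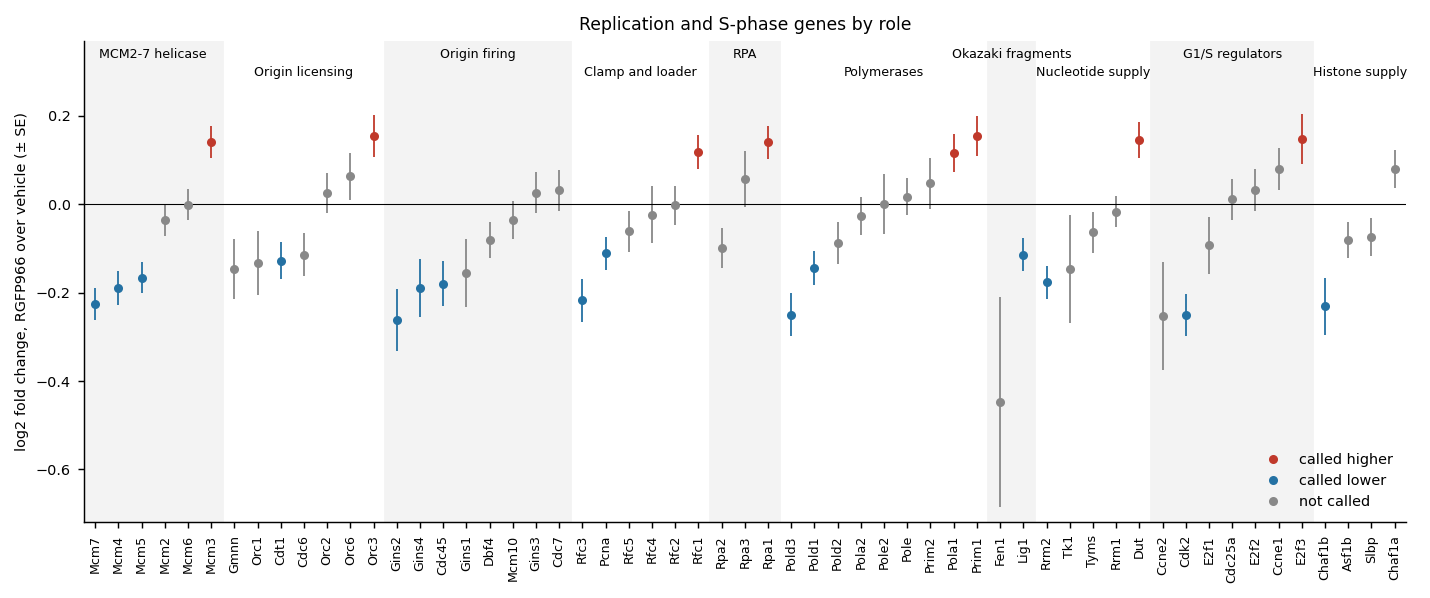
Log2 fold change of each of the 57 members (RGFP966 over vehicle, points with SE bars, n = 3 libraries per group), ordered within each role and coloured by the call at an adjusted p under 0.05. Red points (8 members) lie between 0.12 and 0.16 and blue points (15 members) between -0.26 and -0.11, and 8 of the 10 roles hold no more than 2 of the blue points.

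The change was set beside level because the balance of calls over all genes shifts with it. In genes of 100 to 200 CPM, 11.98% were called higher and 21.0% lower, and of the 23 members at that level 4 were higher and 2 lower. Between 20 and 100 CPM lie 19 members, of which 1 was higher and 7 were lower, and over all genes 12.5% of those at 20 to 50 CPM and 11.7% of those at 50 to 100 CPM were called higher, and 13.7% and 19.6% lower. Of the 12 members from 200 CPM upward, 3 were higher and 6 were lower, where over all genes 14.3% at 200 to 500 CPM and 21.4% at 500 CPM or more were called higher, and 24.0% and 25.2% lower. The part of level in the members' falls was not tested.

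**Figure D2:**
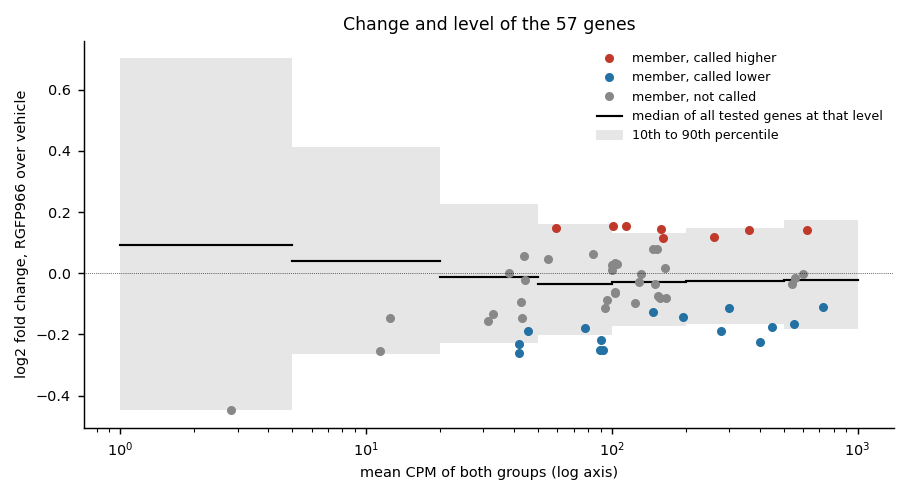
Log2 fold change (RGFP966 over vehicle) of the 57 members against mean CPM of both groups on a log axis, with the median (line) and the 10th to 90th percentiles (grey) of all tested genes in 7 level classes; the highest class is open above 500 CPM and the lowest is drawn from 1 CPM. Medians of all genes lie between 0.09 at the lowest level and -0.03 at 50 to 100 CPM, and the called members lie on both sides of them.

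The MCM2-7 helicase, a ring of 6 related subunits that unwinds DNA at the fork, held calls in both directions, with 3 subunit genes lower, 1 higher and 2 not called. Mcm7 had 369.7, 376 and 359 CPM in RGFP966 libraries 1 to 3, against 432, 433 and 427 CPM in vehicle libraries 1 to 3. Every RGFP966 library lay below every vehicle library, and the fall was 0.23 ± 0.04 on the log2 scale (SE, edgeR adjusted p = 3.52e-06). The Mcm7 gene (chromosome 5, 138164583 to 138172422, mm10, minus strand) shares 23.3% of its 50-base exonic words with other annotated genes, Gm5487 most. Of its exon length, 12.6% is overlapped by other genes, Ap4m1 most. Mcm4 had 260.2, 266 and 253 CPM with RGFP966, against 299, 290 and 299 CPM with vehicle, again with no overlap. It fell by 0.19 ± 0.04 on the log2 scale (SE, edgeR adjusted p = 1.35e-04). Mcm5 had 525, 529 and 507 CPM with RGFP966, against 576, 578 and 596 CPM with vehicle. Those groups did not overlap either, and the fall was 0.17 ± 0.04 (SE, edgeR adjusted p = 3.80e-04).

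Mcm3 went the other way, with 659, 669 and 636 CPM in RGFP966 libraries and 599, 599.8 and 582 CPM in vehicle libraries. All 3 RGFP966 libraries were above all 3 vehicle libraries (log2 fold change 0.14 ± 0.04 SE, edgeR adjusted p = 2.23e-03). Mcm3 (chromosome 1, 20802968 to 20820312, mm10, minus strand) shares none of its words with other genes. Mcm6 had 606, 609 and 581 CPM with RGFP966 and 595, 600.1 and 602 CPM with vehicle, groups that overlapped. Its log2 fold change was -0.00 ± 0.04 (SE, edgeR adjusted p = 0.985), with a 95% interval from -4.9% to 4.96%. Mcm2 had 538, 548 and 521 CPM with RGFP966 and 553, 549.9 and 544 CPM with vehicle (log2 fold change -0.04, edgeR adjusted p = 0.524, 95% interval from -7.17% to 2.53%). The calls of Mcm3, Mcm4, Mcm5 and Mcm7 held in all 14 alternatives.

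Shares within a library do not move with the scaling of libraries. They sum to 100% in each complex, so a lower share of some subunits raises the others, and they are a description of the balance and no separate support for the calls. Per kilobase of exon, Mcm3 took 26.2% ± 0.0318 (SD, n = 3) of the summed MCM2-7 transcripts in RGFP966 libraries and 22.9% ± 0.385 in vehicle libraries. Mcm7 took 12.5% ± 0.04 in RGFP966 libraries and 14.1% ± 0.111 in vehicle libraries. Mcm5 took 19.6% with RGFP966 and 21.1% with vehicle, and Mcm4 took 10.9% with RGFP966 and 11.9% with vehicle. The share of Mcm6 was 19.3% with RGFP966 and 18.6% with vehicle, and that of Mcm2 was 11.6% with RGFP966 and 11.4% with vehicle. By share, 3 subunits were lower and 3 higher, Mcm2 and Mcm6 among the higher although neither gene was called. For each of these 6 shares the groups did not overlap (two-sided exact permutation p = 0.1, adjusted p = 0.185 over 37 shares in 11 complexes). That p is the smallest that 3 against 3 libraries allow. Over all complexes the groups did not overlap in 20 of the 37 shares. Only members were counted in the shares, so Orc4, Orc5, Pold4, Pole3 and Pole4 did not enter them. Mcm3 was the most abundant per kilobase in both groups, with 174.5 CPM per kilobase for RGFP966 and 158 for vehicle, and Mcm5 and Mcm6 followed at 130.3 and 128 with RGFP966 and 146 and 128 with vehicle. Mcm5 stood above Mcm6 in vehicle libraries by more than it did in RGFP966 libraries.

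**Figure D3:**
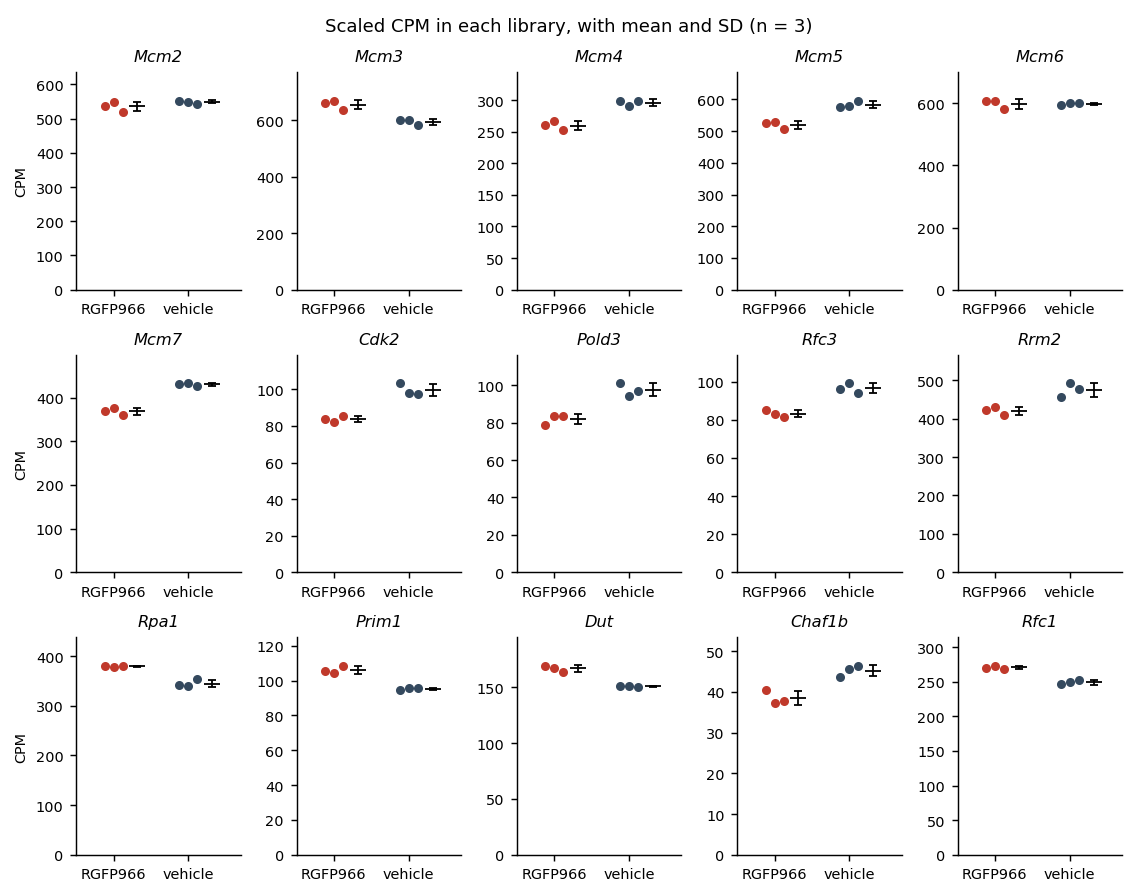
Scaled CPM of 15 members in each library (RGFP966 points left, vehicle points right, linear axes from 0), with the mean and SD of 3 libraries beside each group. In 13 of the 15 panels the groups do not overlap; Mcm2 and Mcm6 are the exceptions.

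Among licensing genes, which load the helicase, 1 of 7 was lower and 1 was higher. Cdt1, which brings MCM2-7 to the origin, had 138, 144 and 138 CPM with RGFP966, against 157, 148 and 155 CPM with vehicle. It fell by 0.13 ± 0.04 (SE, edgeR adjusted p = 0.0211) on the log2 scale. Its adjusted p was 0.0903 and 0.108 without RGFP966 library 1 or 3, 0.118 and 0.0790 without vehicle library 1 or 3, 0.0594 with upper-quartile factors and 0.0562 in the DESeq2 Wald test. Orc3, a subunit of the origin recognition complex, had 118, 123 and 119 CPM with RGFP966, against 104, 117 and 102 CPM with vehicle. It rose by 0.16 ± 0.05 (SE, edgeR adjusted p = 0.0123), but with an adjusted p of 0.0597 without RGFP966 library 2, and of 0.0720 and 0.0862 without vehicle library 1 or 3. The other subunit genes among the members gave log2 fold changes of -0.13 (Orc1), 0.03 (Orc2) and 0.06 (Orc6), none called. Outside the members, Orc4 measured 0.08 (edgeR adjusted p = 0.256) and Orc5 0.13 (edgeR adjusted p = 0.133), neither called. Other genes overlap 29.8% of the exon length of Orc2 (Nif3l1 most) and 10.8% of that of Orc1 (Gm12743 most). Cdc6, the loader ATPase, measured -0.11 (edgeR adjusted p = 0.0846), and Gmnn, which encodes the CDT1 inhibitor geminin, -0.15 (edgeR adjusted p = 0.113, but 0.0347 without vehicle library 1).

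Of the 8 origin firing genes 3 were lower. Cdc45, part of the active helicase, had 76.1, 69.2 and 73.5 CPM with RGFP966, against 82.7, 82.6 and 82.6 CPM with vehicle. It fell by 0.18 ± 0.05 (SE, edgeR adjusted p = 6.07e-03), and without RGFP966 library 2 its adjusted p was 0.0586. The 4 GINS subunit genes, whose products hold CDC45 to the MCM ring, were uneven. Gins4 had 46.2, 42.6 and 39.2 CPM with RGFP966, against 46.2, 52.3 and 47.3 CPM with vehicle, where RGFP966 library 1 lay just below vehicle library 1. Its log2 fold change was -0.19 ± 0.07 (SE, edgeR adjusted p = 0.0282), and its adjusted p was 0.0578 and 0.271 without RGFP966 library 2 or 3, 0.184 without vehicle library 2, 0.0633 with upper-quartile factors and 0.106 in the DESeq2 Wald test. Gins2 measured 36.0, 42.4 and 35.8 CPM with RGFP966, against 49.7, 42.4 and 44.7 CPM with vehicle, where RGFP966 library 2 and vehicle library 2 nearly met. It fell by 0.26 ± 0.07 (SE, edgeR adjusted p = 4.13e-03), a value uncertain for its overlap with another gene, with an adjusted p of 0.0590 without RGFP966 library 3 and 0.0633 without vehicle library 1. The exons of Gins2 are overlapped over 67.3% of their length by Gse1, which measured 67.5 CPM with RGFP966 and 60.9 CPM with vehicle. Gins1 measured -0.15 and Gins3 0.03, neither called.

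The genes of the CDC7-DBF4 kinase were not called, while Cdk2, described with the G1/S regulators, fell. Cdc7 had a log2 fold change of 0.03 (edgeR adjusted p = 0.684; 95% interval from -4.15% to 8.97%). Dbf4, its activating subunit, had 161, 165 and 159 CPM with RGFP966, against 168, 173 and 172 CPM with vehicle. Those groups did not overlap, but the difference of -0.08 did not pass the test (edgeR adjusted p = 0.147). Mcm10, a firing factor that is not part of the ring, measured -0.04 (not called; 95% interval from -8.03% to 3.46%).

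At the fork, Pcna, the sliding clamp that holds polymerases on DNA, was the most abundant member per library at 673, 731 and 691 CPM with RGFP966, against 748, 789 and 726 CPM with vehicle. RGFP966 library 2 lay above vehicle library 3, so these groups overlapped, the only overlap among the 23 called members. Pcna fell by 0.11 ± 0.04 (SE, edgeR adjusted p = 0.0232), with an adjusted p of 0.202 and 0.119 without RGFP966 library 1 or 3, 0.0531 and 0.128 without vehicle library 1 or 2, and 0.0774 with upper-quartile factors. It shares 19.1% of its words with other genes, the pseudogene Pcna-ps2 most. The clamp loader split like the helicase. Rfc3 had 85.1, 83.0 and 81.4 CPM with RGFP966, against 96.4, 99.3 and 94.3 CPM with vehicle, and fell by 0.22 ± 0.05 (SE, edgeR adjusted p = 4.64e-04). Rfc1, the large subunit, had 270.2, 273 and 269 CPM with RGFP966, against 246, 249 and 253 CPM with vehicle, and rose by 0.12 ± 0.04 (SE, edgeR adjusted p = 0.0167). The groups did not overlap in either gene. The adjusted p of Rfc1 was 0.0588 and 0.0620 without RGFP966 library 1 or 2, and 0.0689 without vehicle library 1. Rfc2, Rfc4 and Rfc5 lay between -0.06 and -0.00 and were not called. Other genes overlap 15.1% of the exon length of Rfc2 (Lat2 most), 12.7% of Rfc4 (Eif4a2 most) and 10.7% of Rfc5 (Wsb2 most). Eif4a2 measured 647 CPM with RGFP966 and 534 CPM with vehicle, and rose by 0.26 (edgeR adjusted p = 1.05e-07). As a share of the loader's transcripts per kilobase, Rfc1 took 32.3% with RGFP966 and 29.4% with vehicle, and Rfc3 took 16.6% with RGFP966 and 19.0% with vehicle (two-sided exact permutation p = 0.1 for each, n = 3).

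RPA coats single-stranded DNA behind the helicase. Rpa1, its largest subunit, had 381, 378 and 380 CPM with RGFP966, against 342, 339.5 and 354 CPM with vehicle. The RGFP966 libraries all lay above the vehicle libraries, a rise of 0.14 ± 0.04 (SE, edgeR adjusted p = 3.11e-03) that kept its call in all 14 alternatives. Rpa2 measured -0.10 (edgeR adjusted p = 0.108; 0.0335 without vehicle library 3) and Rpa3 0.06 (edgeR adjusted p = 0.579). The share of the trimer's transcripts per kilobase taken by Rpa2 was 27.2% ± 0.387 (SD, n = 3) with RGFP966 and 30.1% ± 1.41 with vehicle.

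The 9 polymerase genes held 2 rises and 2 falls. The rises were both in the polymerase alpha-primase complex, which lays down primers, and the falls were both in polymerase delta, which copies the lagging strand. Prim1, the catalytic primase subunit, had 106, 104 and 109 CPM with RGFP966, against 94.6, 95.7 and 95.8 CPM with vehicle. It rose by 0.15 ± 0.05 (SE, edgeR adjusted p = 9.18e-03) and kept its call in all 14 alternatives. Pola1, the catalytic subunit of polymerase alpha, had 166, 173 and 164 CPM with RGFP966, against 147, 158 and 159.7 CPM with vehicle. It rose by 0.12 ± 0.04 (SE, edgeR adjusted p = 0.0381), with an adjusted p of 0.0866 and 0.171 without RGFP966 library 1 or 2, 0.249 without vehicle library 1, 0.0645 with no filter and 0.0751 in the DESeq2 Wald test. Pola2 and Prim2 of the same complex measured -0.03 and 0.05, neither called.

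Pold3, an accessory subunit of polymerase delta, had 78.8, 83.8 and 83.5 CPM with RGFP966, against 101, 94.4 and 97.2 CPM with vehicle. Its fall of 0.25 ± 0.05 (SE, edgeR adjusted p = 8.23e-05) was among the largest of the members. Pold1, the catalytic subunit, had 188, 185 and 183 CPM with RGFP966, against 205, 204 and 206 CPM with vehicle, and fell by 0.14 ± 0.04 (SE, edgeR adjusted p = 4.62e-03). For both genes the groups did not overlap and the call held in all 14 alternatives. Pold2 measured -0.09 (edgeR adjusted p = 0.196). Of the leading-strand polymerase epsilon, the members Pole and Pole2 were not called. Pole measured 0.02 (edgeR adjusted p = 0.812, 95% interval from -4.43% to 7.21%). Pole2 measured 0.00 (edgeR adjusted p = 0.995, 95% interval from -8.93% to 9.95%). Of its subunit genes outside the members, Pole3 fell by 0.14 ± 0.05 (SE, edgeR adjusted p = 0.0271), and Pole4 measured -0.04 (edgeR adjusted p = 0.573). The call of Pole3 was not followed under the alternatives. Lig1, the ligase that joins Okazaki fragments, had 291, 292 and 281 CPM with RGFP966, against 309, 303 and 323 CPM with vehicle. It fell by 0.11 ± 0.04 (SE, edgeR adjusted p = 0.0222), with an adjusted p of 0.0528 and 0.155 without RGFP966 library 1 or 3, 0.0553 and 0.169 without vehicle library 1 or 3, and 0.0664 with upper-quartile factors. Fen1, the flap nuclease, was listed at 3.09, 2.25 and 1.81 CPM with RGFP966 and 3.06, 2.94 and 3.71 CPM with vehicle, and 84.2% of its exon length is overlapped by Gm10143. Its difference of -0.45 ± 0.24 was not called (SE, edgeR adjusted p = 0.181), and its level is uncertain because reads in overlapped sequence cannot be assigned to 1 gene.

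**Figure D4:**
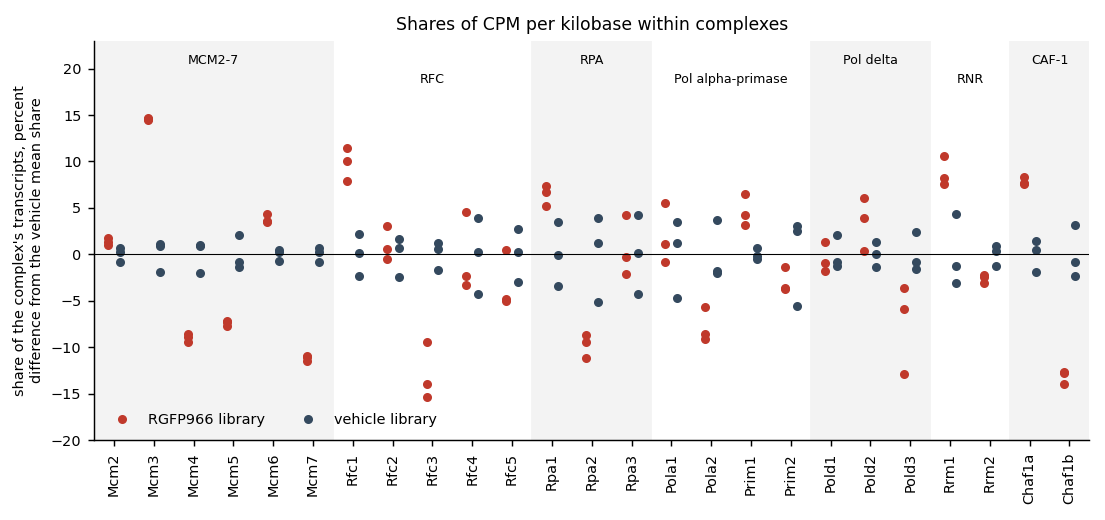
Share of the summed CPM per kilobase taken by each subunit gene among the members in each library, for 7 of the 11 complexes. Values are the percent difference from the mean vehicle share (RGFP966 points left, vehicle points right). The origin recognition complex, CDC7-DBF4, GINS and polymerase epsilon are not drawn. Among their shares the groups did not overlap only for Orc1, Orc3 and Gins3. RGFP966 libraries lie above all vehicle libraries for Mcm3, Rfc1, Rpa1, Rrm1 and Chaf1a, and below them for Mcm4, Mcm5, Mcm7, Rfc3, Rpa2, Pold3, Rrm2 and Chaf1b, among others.

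In nucleotide supply, Rrm2, the S-phase subunit of ribonucleotide reductase, had 423, 430.2 and 410.2 CPM with RGFP966, against 456, 493 and 479 CPM with vehicle. It fell by 0.18 ± 0.04 (SE, edgeR adjusted p = 2.66e-04). Its partner Rrm1 had 546, 559 and 548 CPM with RGFP966, against 566, 554 and 552 CPM with vehicle, groups that overlapped (log2 fold change -0.02, edgeR adjusted p = 0.792, 95% interval from -5.87% to 3.85%). Dut, the dUTPase that keeps uracil out of DNA, had 169.5, 167 and 164 CPM with RGFP966, against 152, 151 and 150.1 CPM with vehicle. It rose by 0.15 ± 0.04 (SE, edgeR adjusted p = 5.98e-03). The calls of Rrm2 and Dut held in all 14 alternatives. Tyms, thymidylate synthase, measured -0.06 (edgeR adjusted p = 0.366). Tk1, thymidine kinase, measured -0.15 (edgeR adjusted p = 0.433), from 10.9, 10.9 and 13.8 CPM with RGFP966 and 15.7, 12.6 and 11.3 CPM with vehicle, a level low enough that its 95% interval ran from -23.8% to 7.15%.

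Among the G1/S regulators, Cdk2, the kinase that drives S-phase entry with cyclin E, had 83.8, 82.2 and 85.2 CPM with RGFP966, against 103, 98.0 and 97.4 CPM with vehicle. The groups were well apart, a fall of 0.25 ± 0.05 (SE, edgeR adjusted p = 6.52e-05) that held in all 14 alternatives. E2f3, an activator E2F, had 63.0, 59.9 and 64.2 CPM with RGFP966, against 55.7, 54.9 and 58.5 CPM with vehicle. Its rise of 0.15 ± 0.06 was close to the threshold (SE, edgeR adjusted p = 0.0468), and its adjusted p was 0.130 and 0.153 without RGFP966 library 1 or 3, 0.107 and 0.129 without vehicle library 1 or 2, 0.0840 with no filter and 0.107 in the DESeq2 Wald test. The other activators, E2f1 and E2f2, measured -0.09 and 0.03 and were not called. Ccne1, cyclin E1, measured 0.08 (edgeR adjusted p = 0.237, but 0.0243 without RGFP966 library 3), and Ccne2 measured -0.25 from a level near 11 CPM (edgeR adjusted p = 0.133). Other genes overlap 17.4% of the exon length of Ccne2, Ints8 most. Cdc25a, the phosphatase that activates CDK2, measured 0.01 (not called; 95% interval from -5.57% to 7.51%).

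Of the 4 histone supply genes 1 was lower. Chaf1b, a subunit of the CAF-1 chaperone that places histones on new DNA, had 40.6, 37.3 and 37.8 CPM with RGFP966, against 43.8, 45.6 and 46.4 CPM with vehicle. It fell by 0.23 ± 0.06 (SE, edgeR adjusted p = 5.73e-03) and kept its call in all 14 alternatives. Chaf1a, the large subunit, measured 0.08 (edgeR adjusted p = 0.188), and 52.5% of its exon length is overlapped by Ubxn6. Chaf1b took 32.5% ± 0.264 (SD, n = 3) of the transcripts per kilobase of this pair with RGFP966 and 37.4% ± 1.06 with vehicle. Asf1b, another histone chaperone, and Slbp, which binds the stem-loop of histone mRNA, measured -0.08 and -0.07 and were not called.

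Summed by role, levels differed by less than 8%. The 8 firing genes summed to 706, 706 and 690.3 CPM with RGFP966, against 729.9, 746 and 732 CPM with vehicle. RPA was the 1 role whose sum lay above vehicle in every RGFP966 library, at 546, 544 and 544 CPM with RGFP966 and 515, 518 and 517 CPM with vehicle. The MCM2-7 sum lay between 2856 and 2998 CPM with RGFP966 and between 3051 and 3054 CPM with vehicle. The sums for licensing, the clamp and loader, and the G1/S regulators overlapped between the groups.

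A list of 42 other replication genes, fork and checkpoint factors, nucleotide enzymes and E2F and RB genes among them, is set beside the members. Of 41 tested, 5 were higher and 12 lower (12.2% and 29.3%). Of all tested genes 11.4% were higher and 11.9% lower, and of genes of at least 20 CPM 12.6% and 18.4%. With upper-quartile factors 6 of the other replication genes were higher and 8 lower, and with total counts 6 and 9. The difference from the members was not tested. Without RGFP966 library 2 or vehicle library 1 the higher ones numbered 3. Samhd1 did not pass the filter. Rnaseh2b, a subunit of the enzyme that removes ribonucleotides from DNA, had 32.3, 30.3 and 32.6 CPM with RGFP966, against 41.6, 46.5 and 44.4 CPM with vehicle. It fell by 0.48 ± 0.07 (SE, edgeR adjusted p = 3.23e-07), further than any called member. Dscc1 and Chtf18, subunits of the alternative clamp loader CTF18-RFC, fell by 0.54 (edgeR adjusted p = 6.62e-05) and 0.24 (edgeR adjusted p = 1.41e-03). The mean level of Dscc1 was 13.7 CPM with RGFP966 and 19.9 CPM with vehicle. Chtf8 of the same loader rose by 0.15 (edgeR adjusted p = 5.69e-03), with 91.8% of its exon length overlapped by a gene entry of the same name. Recql4, a helicase needed for firing, fell by 0.29 (edgeR adjusted p = 2.37e-04). Uhrf1, which guides maintenance methylation at forks, fell by 0.17 (edgeR adjusted p = 3.21e-04), and Ccna2, cyclin A2, by 0.17 (edgeR adjusted p = 1.66e-03). Uhrf1 shares 15.4% of its words with other genes, Gm5648 most. Of the exon length of Ccna2, 12.5% is overlapped by other genes, Exosc9 most. Rb1, the retinoblastoma protein that restrains E2F, had 87.9, 92.1 and 89.4 CPM with RGFP966, against 74.9, 72.9 and 75.9 CPM with vehicle. This was a rise of 0.27 ± 0.05 (SE, edgeR adjusted p = 3.09e-05). Of the exon length of Rb1, 14.9% is overlapped by other genes, Rcbtb2 most. Pclaf, a PCNA-binding factor, rose by 0.15 (edgeR adjusted p = 1.74e-03).

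For scale, 17 of 30 mitosis genes were lower (56.7%) and 2 were higher (6.67%), with a median log2 fold change of -0.14. Of the 57 members, 15 were lower and 8 higher, with a median of -0.06. Among genes of at least 20 CPM 18.4% were lower and 12.6% higher, and among all tested genes 11.9% and 11.4%. The higher mitosis genes numbered 0 without RGFP966 library 1 or 2, and 1 without any 1 of the vehicle libraries. The difference between the lists was not tested.

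**Figure D5:**
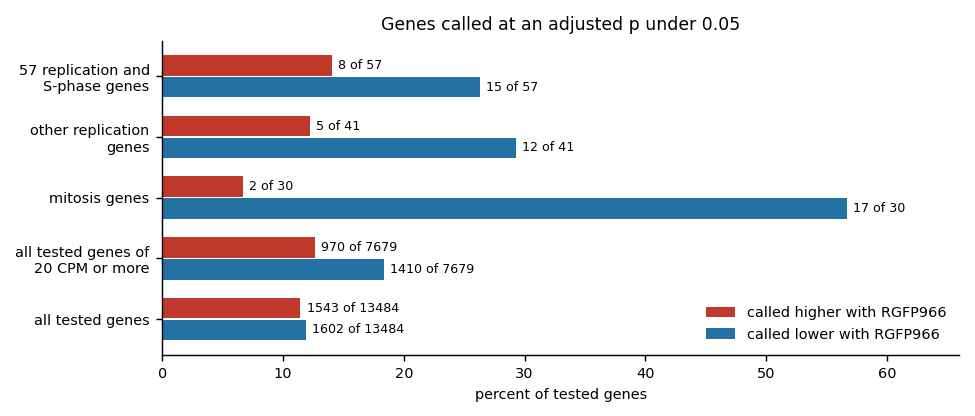
Percent of tested genes called higher (red) or lower (blue) with RGFP966 at an adjusted p under 0.05 in the 57 members, 41 other replication genes, 30 mitosis genes, and all tested genes with and without a minimum mean of 20 CPM. The members' lower share of 26.3% lies above the 18.4% of genes of at least 20 CPM and their higher share of 14.0% lies near that background's 12.6%.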

How the data were processed

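The authors deposited raw read counts per Ensembl mouse gene, 1 column per library, for 3 RGFP966 and 3 vehicle libraries. The submitters' processing notes name HTSeq 0.6.0, TopHat2, HISAT2 2.1.0, Bowtie2 2.2.3 and CASAVA, with build mm10. The sources used here give no role for each tool, no annotation release and no strand setting. Symbols matched 51633 of 51912 IDs. Exon lengths, overlaps and shared 50-base words came from GENCODE M21.

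The counts were fitted in edgeR 4.0.16 (R 4.3.3) over all genes with filterByExpr, TMM factors and the robust quasi-likelihood test, with group as the only term. Each SE was computed by dividing the size of the log2 fold change by the root of its F value. Alternatives used DESeq2 1.42.0, limma-voom (limma 3.58.1), other scalings and filters, a replicate block, and each library left out.

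Every member was to be described, called members with full values, and of the other replication genes the 8 of smallest p. Chtf8, Orc4, Orc5, Pole3 and Pole4 were added after their values were seen. The members and lists were chosen with earlier results of these data known. Intervals cover the spread between libraries; RGFP966 libraries were shallower than vehicle libraries.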

Additional observations from a re-analysis of the deposited data

How the results depend on the processing

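Under 14 alternatives, 13 of the 23 called members kept their calls in each (4 higher, 9 lower), 10 lost the call in at least 1, and 0 changed direction. Leaving out 1 library gave 4 to 8 higher and 10 to 14 lower members, 3 to 7 higher and 8 to 10 lower other replication genes, 0 to 2 higher and 14 to 16 lower mitosis genes, and 1238 to 1385 higher and 1116 to 1484 lower genes in all. The mitosis genes called higher numbered 1 with no filter, in the DESeq2 Wald test and with limma-voom. Counts over these other lists under the alternatives were chosen after seeing the data.

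Same-numbered libraries correlated at -0.018 to 0.013 in their deviations from the group means over all tested genes. These values showed no pairing by replicate number, but they cannot exclude a weak one. A fit with the replicate block gave 8 higher and 15 lower members. Over all genes it gave 1667 higher and 1764 lower, against 1543 and 1602 without the block. Members near 0 that were not called changed sign. Mcm6 measured 0.0026 and Rfc2 0.0021 with DESeq2 size factors, 0.0220 and 0.0215 with upper-quartile factors, 0.0129 and 0.0127 with total counts, 0.0136 and 0.0132 with a 5 CPM minimum, and 0.0025 and 0.0022 in the DESeq2 Wald test. Rrm1 measured 0.0069 with upper-quartile factors and Pole2 -0.0013 with no filter. With 1 library left out, log2 fold changes ran from -0.0143 to 0.0270 for Mcm6, -0.0352 to 0.0262 for Rfc2, -0.0786 to 0.0211 for Rfc4, -0.0090 to 0.0367 for Pole, -0.0286 to 0.0463 for Pole2, -0.0084 to 0.0390 for Cdc25a and -0.0133 to 0.0686 for E2f2. The cause was not tested. At 3 libraries a group, differences of a few percent lie inside the intervals of most members.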
